A study of Drosophila melanogaster with 15 samples.

Results

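Xrp1, Irbp18, crc and Gcn2 are regulators of the integrated stress response of the fly, and their RNA was followed in larval brains of 5 genotypes. They were listed by FlyBase symbol and matched to gene identifiers of the count table, which held 4 of 4 among its 8990 genes, and all 4 passed the filter on low counts. The response runs from kinases to transcription factors. Gcn2 and PEK phosphorylate the translation initiation factor eIF2alpha, Gcn2 when amino acids are short and PEK when proteins misfold in the endoplasmic reticulum, and general translation then falls while that of crc, the fly ATF4, rises through short upstream reading frames. The bZIP factor Xrp1, an AT-hook protein first known as a p53 target after irradiation, acts in the same response in imaginal discs and is raised in cells heterozygous for ribosomal protein mutations. Irbp18, a C/EBP-type bZIP protein that binds inverted repeats, is its dimer partner. RNA levels do not show the translation of crc or the activity of Gcn2.

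Polyadenylated RNA was sequenced from brains of female late L3 larvae raised at 25 °C, with 15 libraries of 3 brains each. Oregon, a standard laboratory strain of which the age was not given, is one group. CDXY larvae carried the attached chromosome C(1)DX with a Y and were dissected 5 days after egg laying, while CDXX larvae carried C(1)DX with a free X, so 3 copies of X instead of 2, and were dissected 8 days after egg laying. C2L larvae carried the compound arm C(2L)SH1 and were taken at 5 days. T2L was read, by elimination, as C(2L)SH1/+ with 3 copies of arm 2L, taken at 8 days. Each group had 3 libraries from different days, with the batch labels 4, 5 and 6. Age and genotype therefore change together in CDXX against CDXY and in T2L against C2L, and CDXX also lacks the Y of its control, so these cannot be told apart. T2L and CDXX have the same age, as have C2L and CDXY.

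Library depth was 22.9 to 28.3 M counts. The neuronal marker genes summed to 3073 to 4807 CPM (counts-per-million, TMM scaled) in every library, as a check of the labelled tissue. This sum does not show how much other tissue came with the brains. In CDXX against CDXY the 7 neuronal markers had a median log2 fold change of -0.11 and the 6 neuroblast markers one of 0.28. Genes were called with edgeR's quasi-likelihood test at a Benjamini-Hochberg adjusted p under 0.05 over 8981 genes. By this rule 23.1% of genes were higher and 20.8% lower in CDXX against CDXY, and 11.6% were higher and 4.05% lower in T2L against C2L. With scaling factors taken from genes on neither X nor 2L, 63.4% of the calls in CDXX against CDXY were higher instead of 52.5%, and 88.3% instead of 74.1% in T2L against C2L. X genes had a median log2 fold change of 0.45 in CDXX against CDXY and 2L genes one of 0.47 in T2L against C2L.

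The 4 genes lie at separate places on the autosomes (dm6 coordinates, Ensembl annotation of BDGP6). Xrp1 (FBgn0261113) spans 3R 18914968 to 18926989 on the plus strand, has 7 annotated transcripts and shares no exon with another gene. Irbp18 (FBgn0036126) is a short gene of 614 exonic bases at 3L 11097446 to 11098186 on the minus strand, inside the span of CG33947 on the other strand, with which it shares 95 exonic bases. Gcn2 (FBgn0019990), at 3R 31395660 to 31402013 on the plus strand, shares 454 of its 5743 exonic bases with PNPase on the other strand. The gene crc (FBgn0000370), at 2L 21310866 to 21319527 on the plus strand, shares 2515 of its 3423 exonic bases with CG46314 on the same strand, which was not analysed here. It is thus the one regulator on an arm of changed copy number, and only in T2L. The library kit does not mark strand, so reads from the shared stretches cannot be told apart.

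Per kilobase of exon, Xrp1 had the highest level of the 4, with a mean of 65.7 CPM per kilobase over all libraries, percentile 89 of 8930 genes. On the same scale crc stood at 41.9 (percentile 81.5), Irbp18 at 16.2 (percentile 51.6) and Gcn2 at 8.86 (percentile 32.9). How reads in the bases that crc shares with CG46314 were counted is not given in the sources used here, so its level per kilobase and its percentile are uncertain. Irbp18 rested on 181 to 434 counts per library, the fewest of the regulators. Its partner Xrp1 was 3.13 to 5.04 times as abundant per kilobase in the 5 group means. That ratio was 3.13 ± 0.925 (SD, n = 3) in CDXY, 5.04 ± 0.401 in CDXX, 3.51 ± 0.68 in C2L, 4.12 ± 1.04 in T2L and 4.11 ± 1.13 in Oregon. In CDXX its lowest value, 4.68, lay above the highest of CDXY, 4, and within the ranges of T2L and Oregon; the ratio was not tested.

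Xrp1 RNA was high in CDXX brains and lower in the other 4 groups, whose libraries overlapped. In batches 4, 5 and 6 it stood at 663, 621 and 490 CPM in CDXX and at 245, 172 and 234 CPM in CDXY. T2L had 317, 267 and 247 CPM, C2L 303, 198 and 224 CPM, and Oregon 237, 293 and 251 CPM. Every CDXX library was above every library of the other groups, whose ranges overlapped each other in the order CDXY, C2L, Oregon and T2L. In a whole brain, fewer cells of a type and less RNA per cell cannot be told apart, here and in what follows. Xrp1 rose 2.73-fold in CDXX against CDXY (log2 1.45, SE 0.19, 95% interval 1.05 to 1.85, edgeR adjusted p = 0.000201). It had rank 512 from the top among all genes tested and at percentile 94.7 of 2171 genes on 3R, whose median was -0.09. Within batches 4, 5 and 6 the log2 difference was 1.44, 1.85 and 1.07.

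**Figure D1:**
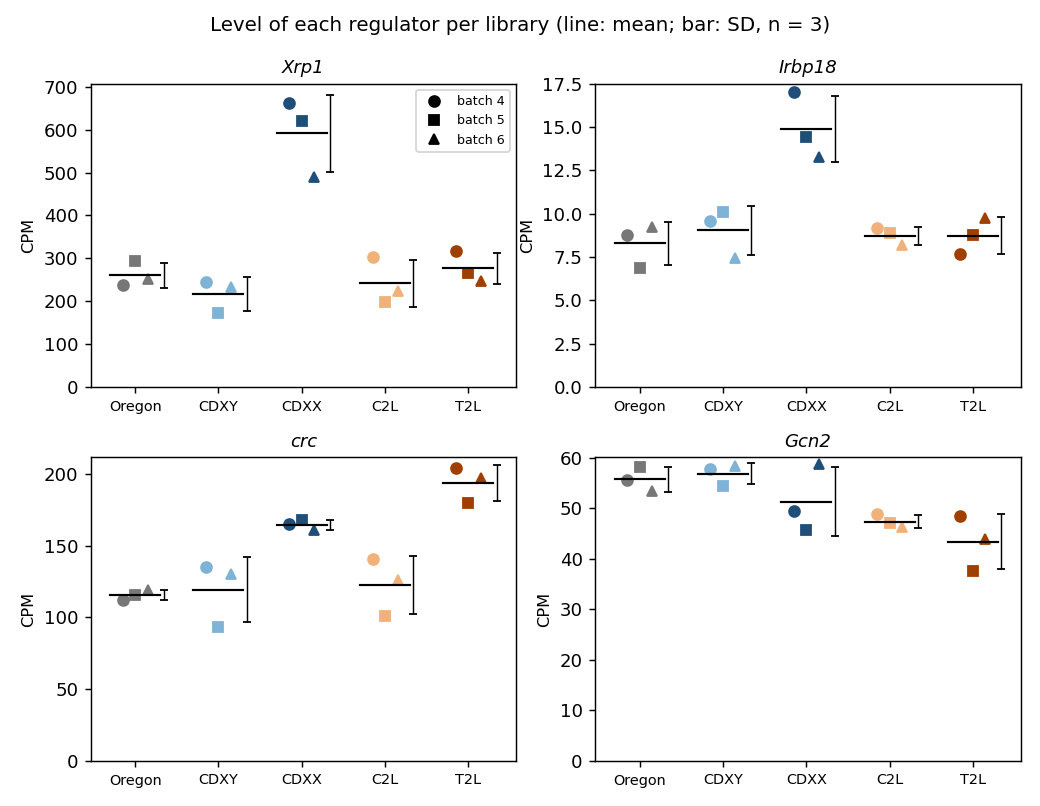
Level of each regulator in CPM (vertical axes from 0) in the 15 libraries, by group; symbols mark the batch, horizontal lines the mean and bars the SD of 3 libraries. The CDXX libraries stand above all others for Xrp1 (490 to 663 CPM) and Irbp18 (13.3 to 17 CPM), CDXX and T2L stand above the rest for crc, and neighbouring groups overlap for Gcn2.

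Xrp1 was not called in T2L against C2L, with a log2 difference of 0.20 (SE 0.18, 95% interval -0.20 to 0.59, edgeR adjusted p = 0.492), so a rise of the size seen in CDXX lies outside the interval. The difference between both contrasts was itself tested and called, at 1.25 (SE 0.26, 95% interval 0.69 to 1.81, edgeR adjusted p = 0.00434). In that test 10.5% of all genes were called higher and 11.8% lower. Set directly against CDXX brains of the same age, T2L brains had 2.14-fold less Xrp1 (log2 -1.09, SE 0.18, edgeR adjusted p = 0.000546), with within-batch values of -1.07, -1.22 and -0.99.

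Irbp18, the partner of Xrp1, was higher in the same brains. In batches 4, 5 and 6 CDXX held 17, 14.4 and 13.3 CPM, and CDXY held 9.61, 10.1 and 7.44 CPM. The other libraries lay between 6.87 CPM in Oregon and 9.78 CPM in T2L, so no library outside CDXX reached its lowest value. Irbp18 rose 1.65-fold in CDXX against CDXY (log2 0.72, SE 0.16, 95% interval 0.37 to 1.07, edgeR adjusted p = 0.00395), at percentile 88.2 of the 1750 genes of 3L, and within batches by 0.83, 0.51 and 0.84. Its log2 difference in T2L against C2L was -0.00 (SE 0.16, 95% interval -0.35 to 0.35, adjusted p = 0.996), a value that turned to 0.06 with factors from genes on neither X nor 2L. The difference between both contrasts was 0.72 (SE 0.23, edgeR adjusted p = 0.0382). This call ended in 8 of the 12 fits that each left out 1 library, with values of 0.59 to 0.81: those without replicate 4 of CDXY, CDXX, C2L or T2L, replicate 5 of C2L or T2L, or replicate 6 of C2L or CDXY. Against CDXX at the same age T2L held 1.71-fold less Irbp18 (log2 -0.77, SE 0.16, edgeR adjusted p = 0.00243).

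CG33947, the gene that spans Irbp18 on the other strand, went the other way. It stood at 10.2, 10.4 and 10.7 CPM in CDXY and at 6.32, 6.19 and 6.03 CPM in CDXX. These groups do not overlap, and CG33947 fell by 0.76 on the log2 scale (SE 0.13, edgeR adjusted p = 0.000759) while Irbp18 rose. Its difference in T2L against C2L was 0.04 (SE 0.12, adjusted p = 0.843), with a sign that turned in 2 of the 6 fits that left out a library (-0.06 without C2L replicate 4 and -0.01 without T2L replicate 6).

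**Figure D2:**
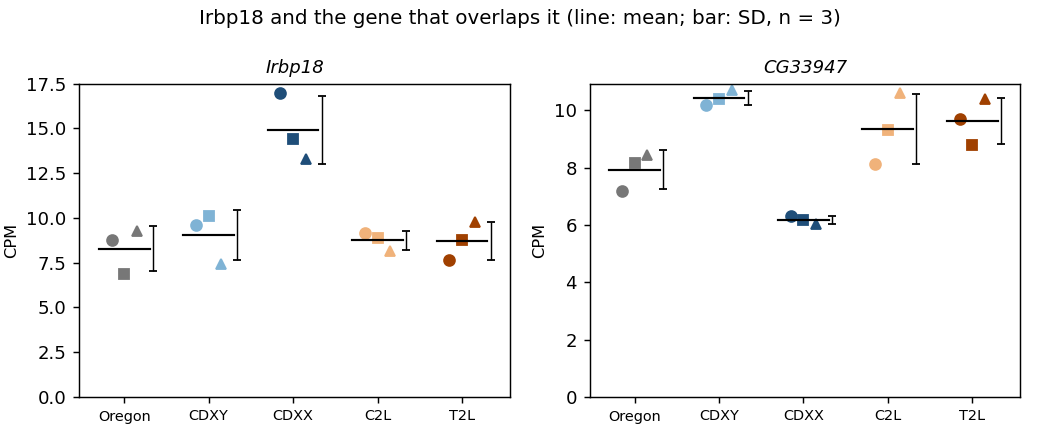
Irbp18 and CG33947, genes on opposite strands that overlap, in CPM (vertical axes from 0) in the 15 libraries by group; lines are means and bars the SD of 3 libraries. In CDXX Irbp18 is at its highest (13.3 to 17 CPM) and CG33947 at its lowest (6.03 to 6.32 CPM).

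The ATF4 gene crc was higher in both groups with an extra chromosome arm. CDXX libraries held 165, 168 and 161 CPM and T2L libraries 204, 180 and 197 CPM. The controls held 135, 93.5 and 130 CPM in CDXY, 141, 101 and 126 CPM in C2L, and 112, 116 and 119 CPM in Oregon. CDXX stood above all 3 of these groups and T2L above CDXX, with no overlap at either step. The batch 5 libraries of CDXY and C2L were the lowest of all. In CDXX against CDXY crc rose 1.38-fold (log2 0.46, SE 0.14, 95% interval 0.16 to 0.76, edgeR adjusted p = 0.0177). Without CDXY replicate 5 the value was 0.31 (adjusted p = 0.0679), and in a fit of both groups alone 0.44 (adjusted p = 0.0596), so that call depends on these choices.

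The rise of crc in T2L against C2L was 1.58-fold (log2 0.66, SE 0.14, 95% interval 0.36 to 0.96, edgeR adjusted p = 0.00759), within batches by 0.53, 0.83 and 0.64. This is the arm with the third copy, where the median gene stood at 0.47, and crc was at percentile 74.8 of its 1562 genes. In CDXX, where 2L has its usual 2 copies and a median of -0.09, crc was at percentile 84.1. The difference between both contrasts was -0.20 for crc (SE 0.19, 95% interval -0.62 to 0.23, adjusted p = 0.491), and T2L against CDXX gave 0.23 (95% interval -0.06 to 0.53, adjusted p = 0.198).

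**Figure D3:**
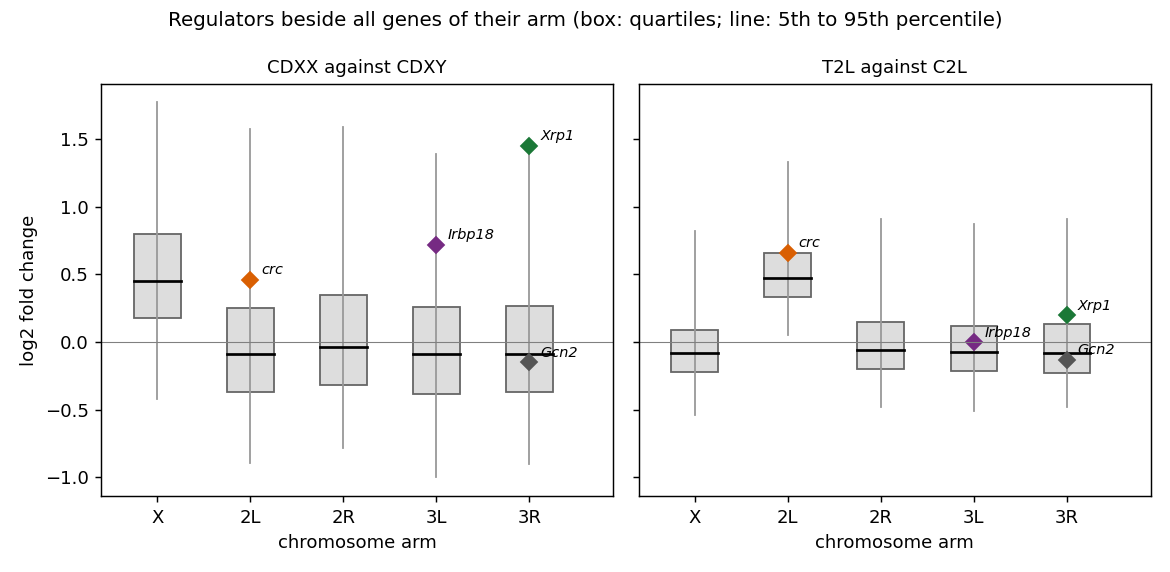
Log2 fold change of each regulator (diamond) in CDXX against CDXY (left) and T2L against C2L (right), beside all genes of each large chromosome arm (box, quartiles with the median; line, 5th to 95th percentile). Xrp1 lies at percentile 94.7 of 3R in CDXX, and crc lies within the upper part of the shifted 2L distribution in T2L, at percentile 74.8.

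The kinase gene Gcn2 was not called in either main comparison. It stood at 49.5, 45.6 and 58.8 CPM in CDXX and at 57.7, 54.4 and 58.4 CPM in CDXY, with overlap. It stood at 48.5, 37.6 and 43.9 CPM in T2L, at 48.8, 47 and 46.2 CPM in C2L, and at 55.6, 58.2 and 53.3 CPM in Oregon. Ordered by mean, T2L, C2L, CDXX, Oregon and CDXY form a series in which each neighbour overlaps the next. The log2 difference was -0.15 in CDXX against CDXY (SE 0.10, 95% interval -0.37 to 0.08, edgeR adjusted p = 0.268) and -0.13 in T2L against C2L (SE 0.10, 95% interval -0.35 to 0.10, adjusted p = 0.435). The difference between them was -0.02 (SE 0.15, adjusted p = 0.936), and its sign turned in 3 of 12 fits without 1 library.

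Read together, 3 of the 4 regulators were called higher in CDXX against CDXY and 1 in T2L against C2L, against backgrounds of 23.1% and 11.6%. The 1 in T2L was crc, a gene of 2L, where the median gene stood at 0.47. The regulators were chosen with earlier results of these data known, so the counts are descriptions. All 4 log2 values entered the medians that follow. The median log2 fold change of the regulators was 0.59 and 0.10, where all genes had 0.02 and -0.01. The difference between both contrasts was called higher for 2 of 4, where 10.5% of all genes were called higher and 11.8% lower.

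The comparisons with Oregon share its 3 libraries, so they are given side by side and not as separate evidence. In CDXX against Oregon 18.7% of genes were higher and 16.6% lower (69.9% of calls higher instead of 52.9% with factors from genes on neither X nor 2L), and Xrp1, Irbp18 and crc were called higher. Xrp1 rose 2.27-fold (log2 1.18, SE 0.18, adjusted p = 0.000755), Irbp18 by 0.85 on the log2 scale (adjusted p = 0.0022) and crc by 0.51 (adjusted p = 0.0145, all edgeR). Gcn2 gave -0.12 (adjusted p = 0.388).

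In T2L against Oregon 10.3% of genes were higher and 2.68% lower (91.7% of calls higher instead of 79.3% with those factors). There crc rose by 0.74 (SE 0.14, edgeR adjusted p = 0.00401), while Xrp1 gave 0.09 and Irbp18 0.08, neither called. Gcn2 fell by 0.36 (SE 0.10, 95% interval -0.59 to -0.14, edgeR adjusted p = 0.038), with all 3 T2L libraries below all 3 of Oregon and within-batch values of -0.20, -0.63 and -0.28. That call ended in 5 of 6 fits without 1 library (-0.36 without Oregon replicate 4, -0.34 without Oregon replicate 5, -0.39 without Oregon replicate 6, -0.27 without T2L replicate 5 and -0.37 without T2L replicate 6). It also ended with factors from genes on neither X nor 2L (-0.29, adjusted p = 0.107).

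Few genes were called between control groups. In CDXY against Oregon 0.323% of genes were higher and 0.534% lower, and none of the 4 regulators was called by edgeR, at an unadjusted p under 0.05 or by DESeq2. Their log2 differences ran from -0.26 for Xrp1 to 0.13 for Irbp18. In C2L against Oregon 0.902% of genes were higher and 1.24% lower. There edgeR and DESeq2 called 0 regulators, and 1 had an unadjusted p under 0.05, which was Gcn2 (-0.23, 95% interval -0.46 to -0.01, adjusted p = 0.463). In C2L against CDXY, at the same age, 1.4% of genes were higher and 1.34% lower. Both tools again called 0 regulators, and Gcn2 was the 1 with an unadjusted p under 0.05 (-0.26, 95% interval -0.49 to -0.04, adjusted p = 0.295). In T2L against CDXX 19.6% of genes were higher and 18% lower, and 2 of the 4 regulators, Xrp1 and Irbp18, were called lower.

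**Figure D4:**
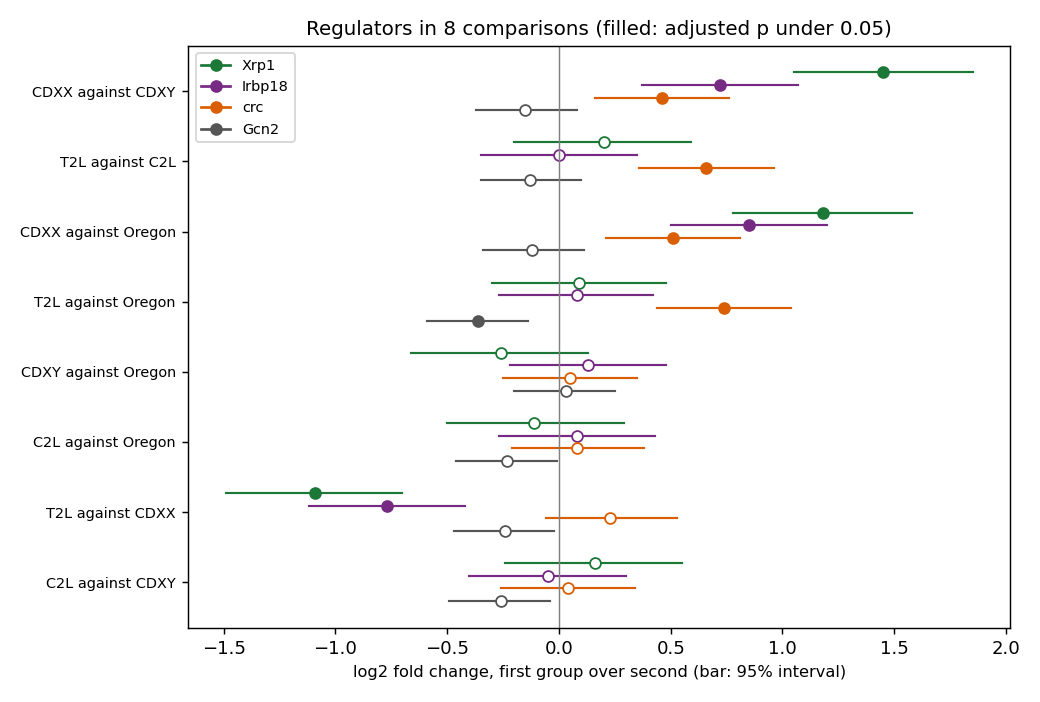
Log2 fold change of the 4 regulators in 8 comparisons (points; bars, 95% intervals; filled points, edgeR adjusted p under 0.05). Xrp1 is at 1.45 in CDXX against CDXY and 0.20 in T2L against C2L, crc is above 0 in both, and the comparisons between control groups hold no filled point.

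Across the 15 libraries, Xrp1 and Irbp18 had a Pearson correlation of log2 CPM of 0.758 and a Spearman correlation of 0.35. For deviations from the group means the correlation was -0.216, so the first value describes the difference between CDXX and the other groups. Xrp1 and crc had 0.57 and 0.682, and 0.787 for deviations from the group means: libraries of a group with more Xrp1 tended to hold more crc. In CDXY, for instance, batch 5 was the lowest for both. The libraries share days and depth, and these values are descriptions.

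The genes most like each regulator over the 15 libraries were taken by Pearson correlation of log2 CPM among 8977 others. For Xrp1 they were RpL37-1 (0.969), CG1578 (0.967), CG4199 (0.962), SmydA-4 (0.961) and CAH3 (0.959), and all lie on X, of which CDXX holds 3 copies. For Irbp18 they were SkpA (0.929), CG15814 (0.917), Lamtor5 (0.912), CG6769 (0.898) and Lst8 (0.897), again all on X. For crc they were RpL5 (0.954), Pld3 (0.952), CG17549 (0.933), CG9331 (0.93) and Vha68-2 (0.927), all on 2L. By Pearson correlation Xrp1 and Irbp18 ranked with genes of an arm they do not lie on, and crc with its own. Xrp1 and Irbp18 were highest in CDXX, with 3 copies of X, and crc in T2L, with 3 copies of 2L. These correlations therefore describe, at least in part, the difference of that group from the others. For Gcn2 the closest were CG6454 (0.934), Osbp (0.86), CG11414 (0.849), Usp8 (0.845) and FAM21 (0.821), on 3R and 2R. Ranked by Spearman correlation instead, 1 of the 5 nearest genes was shared for Xrp1, 0 for Irbp18, 2 for crc and 3 for Gcn2.

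Around the regulators stands the machinery that senses and applies eIF2 phosphorylation. PEK, the second eIF2 kinase, stood at 70.9, 73.8 and 76.3 CPM in CDXX and at 68.1, 60.9 and 63.3 CPM in CDXY, without overlap. It rose by 0.20 (SE 0.07, edgeR adjusted p = 0.0441), a call that ended without CDXX replicate 4 (adjusted p = 0.0531), 5 (0.0805) or 6 (0.125) and without CDXY replicate 5 (0.154) or 6 (0.145). PEK gave -0.12 in T2L against C2L (adjusted p = 0.297). PPP1R15, the phosphatase adaptor that removes the phosphate, had group means from 57.5 ± 3.99 CPM in T2L to 63.4 ± 2.17 CPM in CDXX (SD, n = 3). Its log2 difference was 0.06 in CDXX (95% interval -0.08 to 0.21) and -0.08 in T2L (95% interval -0.23 to 0.07), neither called.

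Of the 16 genes of eIF2 control tested, which include Gcn2 and PEK, 5 were higher and 3 lower in CDXX against CDXY, with a median of 0.01, near the 23.1% and 20.8% of all genes. On X, 3 of 5 were higher: eIF2alpha, the substrate of the kinases (122 ± 4.61 to 171 ± 3.14 CPM, log2 0.48, adjusted p = 0.000915), and the exchange factor subunits eIF2Bbeta (log2 0.60) and eIF2Bepsilon (log2 0.34). Off X, 2 of 11 were higher and 3 lower. NAT1, a relative of eIF4G with a role in cap-independent translation, fell from 896 ± 96.9 to 447 ± 60.4 CPM (0.499 times its CDXY level, edgeR adjusted p = 0.00109). Of the same genes, 0 of which lie on 2L, 0 were higher and 2 lower in T2L against C2L, beside 11.6% and 4.05% of all genes. Their median was -0.22, where the medians of X, 2R, 3L and 3R ran from -0.08 to -0.06. DESeq2 called 5 lower and 0 higher, and 10 were lower and 0 higher at an unadjusted p under 0.05. Shares of all genes by these rules are not given here, so these counts lack a background. The edgeR calls were eIF2Balpha (-0.34, adjusted p = 0.033) and eIF2alpha (-0.28, adjusted p = 0.0391). Each of both calls ended in 5 of 6 fits without 1 library, at values of -0.24 to -0.38 for eIF2Balpha (kept without T2L replicate 5) and -0.25 to -0.30 for eIF2alpha (kept without C2L replicate 5). The count of 2 became 0 without C2L replicate 4 or 6 or T2L replicate 4 and 1 without T2L replicate 6. It also became 0 with factors from genes on neither X nor 2L (adjusted p = 0.0636 for eIF2Balpha and 0.0893 for eIF2alpha) and in the fit of both groups alone. In CDXX the count higher became 3 without CDXX replicate 4 or 6 or CDXY replicate 6, and the count lower 5 without CDXX replicate 5.

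Among 16 genes known as ATF4 targets in flies or mammals, 7 were higher and 1 lower in CDXX against CDXY (median 0.07). All genes had 23.1% higher and 20.8% lower there, and 6 of the 15 listed genes off X were higher. Against Oregon, CDXX had 3 of the 16 higher, near the 18.7% of all genes, and 0 lower, beside 16.6% (median 0.30). Ldh, lactate dehydrogenase, went from 19.6 ± 4.29 CPM in CDXY to 204 ± 130 CPM in CDXX (log2 3.38, SE 0.79, edgeR adjusted p = 0.00504), with 59.9 ± 67.3 CPM in Oregon. CG10365, a ChaC-type enzyme of glutathione breakdown, went from 7.31 ± 4.46 CPM in CDXY to 45.8 ± 5.83 CPM in CDXX (log2 2.65, adjusted p = 0.00124), with 15.6 ± 5.43 CPM in Oregon. Serine synthesis and use were represented by aay, phosphoserine phosphatase (log2 1.43, adjusted p = 0.00361), and the X gene Shmt (log2 0.95, adjusted p = 0.00138). CG6287 and CG11899, listed for earlier steps of serine synthesis, gave -0.61 and -0.92 and were not called. The translation inhibitor Thor, the fly 4E-BP, gave -0.17 (adjusted p = 0.927). Without CDXY replicate 5, 4 genes of the list were higher instead of 7. The 1 gene lower was chrb (-0.37, adjusted p = 0.0395), and that count became 0 without CDXX replicate 4 or 6 or CDXY replicate 5 or 6 and 3 without CDXX replicate 5.

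In T2L against C2L, 2 of 16 ATF4 targets were higher and 0 lower (median 0.28), a share near the 11.6% of all genes, and 1 of them was among the 13 genes off 2L. Aay went from 14.5 ± 6.44 to 39.7 ± 12.2 CPM (log2 1.45, SE 0.31, edgeR adjusted p = 0.00919), beside 1.43 in CDXX, and was not called in the fit of both groups alone (1.44, adjusted p = 0.0538). The amino acid transporter gene JhI-21, on 2L, rose by 0.60 (adjusted p = 0.048), a call that ended without replicate 5 or 6 of either group or T2L replicate 4 (adjusted p up to 0.152). The count of 2 became 1 without replicate 5 or 6 of either group and 0 in the fit of both groups alone. Ldh gave 1.47 and CG10365 1.01, neither called. No ATF4 target was lower by DESeq2 or at an unadjusted p under 0.05.

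Of 10 genes reported with Xrp1 in stressed or ribosomal protein mutant imaginal discs, 8 were tested, and upd3 and Ilp8 were not found in the count table. Of the 8 tested, 4 were higher and 0 lower in CDXX against CDXY (median 0.26), beside 23.1% and 20.8% of all genes. No tested gene lay on X, and 0 were lower by DESeq2 and at an unadjusted p under 0.05. GstE1 went from 11 ± 4.41 to 67.4 ± 8.71 CPM (log2 2.62, SE 0.39, edgeR adjusted p = 0.000432), with 31.5 ± 15 CPM in Oregon. GstE6 went from 2.47 ± 0.504 to 16.3 ± 6.41 CPM (log2 2.72, SE 0.41, edgeR adjusted p = 0.000469), with 5.31 ± 3.09 CPM in Oregon. Both encode glutathione transferases and sit in a run of near copies, between which the counting could have divided reads. RpS12, the ribosomal protein gene through which Xrp1 is raised in competing cells, rose by 0.32 (adjusted p = 0.0309; 0.111 without CDXX replicate 4, 0.0678 without CDXX replicate 6, 0.119 without CDXY replicate 5 and 0.085 without CDXY replicate 6), and PEK was the fourth. The count of 4 became 2 without CDXX replicate 4 or 6 or CDXY replicate 5 and in the fit of both groups alone. Mmp1 gave -1.21, puc 0.04, GstD1 0.75 (edgeR adjusted p = 0.0732) and ref(2)P -0.20, none called. Against Oregon, CDXX had 4 of the 8 higher and 0 lower, beside 18.7% and 16.6% of all genes. T2L against C2L had 1 of 8 higher, a share near the 11.6% of all genes. It was the 2L gene ref(2)P, the fly p62 (log2 0.67, edgeR adjusted p = 0.00418), where DESeq2 called 2. GstE1 (0.98) and GstE6 (0.75) were not called there, and the difference between contrasts was called for both (1.63, adjusted p = 0.0408, and 1.97, adjusted p = 0.0237). Leaving out 1 library ended the call of the difference for both without C2L replicate 4, CDXY replicate 5, T2L replicate 5 or 6 or CDXX replicate 6, and for GstE1 also without CDXY or CDXX replicate 4 or C2L replicate 6, with values of 1.33 to 1.69 for GstE1 and 1.60 to 1.95 for GstE6.

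Xrp1 is a p53 target in irradiated flies, and p53 itself gave -0.02 in CDXX (adjusted p = 0.916) and 0.25 in T2L (adjusted p = 0.288). Its apoptotic targets hid, rpr and skl gave -0.17, 0.24 and -0.18 in CDXX, none called, while the X gene Corp, another p53 target, rose by 0.72 (edgeR adjusted p = 0.0109). Of the 13 genes of p53 and DNA end repair, edgeR called 6 higher and 0 lower in CDXX (median 0.24), beside 23.1% and 20.8% of all genes. DESeq2 and an unadjusted p under 0.05 gave the same counts, and 4 of the 6 were among 11 off X. Beside Corp they were the end repair genes Ku80 (19.6 ± 1.93 to 32.7 ± 3.32 CPM, log2 0.74), Irbp, the fly Ku70 (log2 0.85), mre11 (25.2 ± 3.41 to 55 ± 11.3 CPM, log2 1.12), rad50 (log2 0.85) and the X gene DNAlig4 (log2 0.97), each with an edgeR adjusted p of at most 0.00185. T2L brains had 1 higher, the 2L gene Ku80 (log2 0.56, edgeR adjusted p = 0.00521), and 1 lower, the helicase gene Blm (-0.42, adjusted p = 0.00936). Of all genes 11.6% were higher and 4.05% lower there.

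Among 15 other bZIP factors, 5 were higher and 2 lower in CDXX (median 0.08), beside 23.1% and 20.8% of all genes, and 3 of the 5 lie on X. Atf3 went from 19.5 ± 7.95 to 109 ± 6.81 CPM (log2 2.48, SE 0.37, edgeR adjusted p = 0.000432), above the arm median of 0.45. Pdp1, a PAR-type factor of the clock, rose by 1.28 in CDXX (adjusted p = 0.00022) and by 0.75 in T2L (adjusted p = 0.01, and 0.0539 in the fit of both groups alone), and vri, its repressor counterpart, fell by 2.24 in CDXX (adjusted p = 0.00238). REPTOR-BP, a partner in the response to low TOR activity, rose in both, by 0.76 and, on its own 2L, by 0.68. The count lower became 1 without replicate 4 or 6 of either group. In T2L 2 of the 15 were higher, a share near the 11.6% of all genes, and 0 lower, with 1 lower at an unadjusted p under 0.05 and 0 by DESeq2.

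Chaperones of the endoplasmic reticulum were lower in CDXX. Of 8 sensors and chaperones of the stress response there, edgeR called 0 higher and 4 lower in CDXX against CDXY (median -0.39), beside 23.1% and 20.8% of all genes. DESeq2 and an unadjusted p under 0.05 also gave 0 higher. The chaperone Gp93 fell from 628 ± 35.4 to 367 ± 17.9 CPM (log2 -0.77, SE 0.09, edgeR adjusted p = 0.000164) and Calr from 1156 ± 121 to 732 ± 62 CPM (log2 -0.66, adjusted p = 0.000763). Hsc70-3, the fly BiP, fell by 0.61 (adjusted p = 0.00733) although it lies on X, and Pdi by 0.59 (adjusted p = 0.00388). The sensors Ire1 (-0.20) and Atf6 (0.08) and the factor Xbp1 (-0.09) were not called. Of the 8 genes edgeR called 0 in T2L against C2L, and 1 was lower by DESeq2 and at an unadjusted p under 0.05. The difference between contrasts was called for Gp93 (-0.52, adjusted p = 0.0118) and Calr (-0.67, adjusted p = 0.00775).

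**Figure D5:**
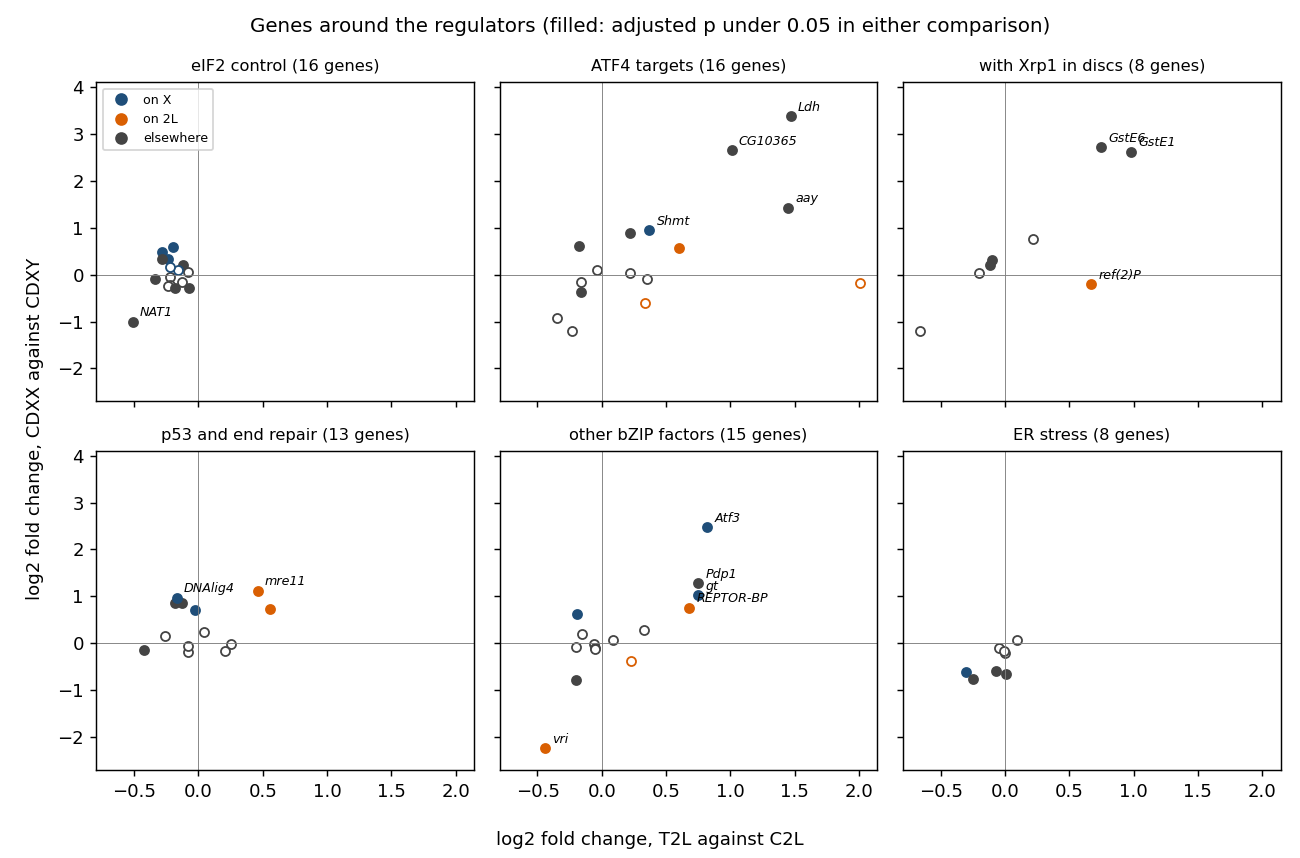
Log2 fold change in CDXX against CDXY (vertical) against that in T2L against C2L (horizontal) for the genes of 6 lists around the regulators; each point is 1 gene, coloured by chromosome arm and filled where the edgeR adjusted p was under 0.05 in either comparison. Ldh, CG10365, GstE1, GstE6 and Atf3 stand highest on the vertical axis (2.48 to 3.38), and the 4 filled genes of endoplasmic reticulum stress lie below 0.

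Markers of stage and of other cells moved with the CDXX brains. Of 18 ecdysone response genes tested, 1 was higher and 11 lower in CDXX against CDXY, beside 23.1% and 20.8% of all genes. Their median was -1.10, where all genes had 0.02. The count of 11 became 7 without replicate 4 of either group or CDXX replicate 6. The repressor gene Blimp-1 fell from 37.4 ± 17.9 to 1.1 ± 0.503 CPM and Eip75B by 1.23 on the log2 scale (edgeR adjusted p = 0.00283), while ftz-f1 rose by 1.78 (adjusted p = 0.00109). Of the 18 genes edgeR called 0 in T2L against C2L, and 1 was lower by DESeq2 and at an unadjusted p under 0.05. The mean log2 CPM of the list was 5.03, 5.67 and 4.54 in CDXX (batches 4, 5 and 6) and 7.09, 6.75 and 6.50 in CDXY. It was 5.51, 5.83 and 6.59 in T2L, 6.33 to 6.58 in C2L, and 6.71, 6.34 and 5.37 in Oregon. The part of stage was not tested beyond a fit with this mean as a covariate. The CDXX values do not overlap those of CDXY or C2L, and overlap those of T2L and Oregon.

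With the ecdysone mean as a covariate Xrp1 stayed called in CDXX against CDXY at 1.40 (edgeR adjusted p = 0.0408), and so did its difference between contrasts (1.22, adjusted p = 0.0271). In that fit 227 genes were called instead of 3942, 163 on X and 64 elsewhere. Irbp18 (0.85, adjusted p = 0.107) and crc (0.43, adjusted p = 0.323) were not called there, at values close to those without it. Ldh went from 3.38 to 0.45 (adjusted p = 0.763), aay from 1.43 to 0.62 (adjusted p = 0.452), GstE1 from 2.62 to 1.25 (adjusted p = 0.0665) and Hsc70-3 from -0.61 to -0.03 (adjusted p = 0.936). NAT1 had -0.29 (edgeR adjusted p = 0.312). With the covariate 0 genes stayed called in the lists of eIF2 control, ATF4 targets, genes reported with Xrp1, other bZIP factors and endoplasmic reticulum stress. Of the p53 and end repair genes 1 was called higher and 0 lower. CDXX and CDXY libraries do not overlap in the covariate itself. The value of crc in T2L against C2L with the covariate was 0.65 (adjusted p = 0.0149).

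In CDXX against CDXY, where 23.1% of all genes were higher and 20.8% lower, 8 of 12 muscle markers were higher. Their summed level was 243 to 667 CPM against 110 to 178 CPM. Of 10 hemocyte markers 4 were higher, at 731 to 2537 CPM against 190 to 503 CPM. Of 7 glial markers 3 were higher and 1 lower, at 1951 to 2114 CPM against 833 to 1075 CPM. That sum follows Gs2 most, with means of 220 CPM in CDXY and 1104 CPM in CDXX. The means of moody and nrv2 were also higher in CDXX, repo had 127 and 147 CPM, and alrm, wrapper and loco were lower. No list had a marker under 1 CPM in all CDXX libraries except that of salivary glue genes, with 4 of 6, and those were lower in CDXX in 5 of 6. In T2L against C2L 2 of 12 muscle, 1 of 10 hemocyte and 3 of 7 glial markers were higher, beside 11.6% of all genes. Their sums in T2L were 169 to 257 CPM for muscle, 433 to 860 CPM for hemocytes and 1107 to 1894 CPM for glia. Ring gland markers varied within groups, with sums of 3.76 to 928 CPM in CDXY and 22.3 to 930 CPM in T2L. Eye disc markers summed to 186 to 279 CPM in CDXX and 43 to 236 CPM in CDXY. In CDXX against CDXY 0 of 5 ring gland and 1 of 4 eye disc markers were higher. The part of these cells and tissues in the results on Xrp1, Irbp18, crc and the lists was not tested.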

How the data were processed

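Polyadenylated RNA of 15 libraries was measured, and the deposited table held raw counts per gene, whole numbers that the authors had not normalized. Per the submitters' processing notes, Trim Galore, STAR 2.7.10a, featureCounts and the build dm6 were used to make the table. How strand, multiple matches and rare genes were treated is not given in the sources used here. No gene had a mean count under 27.0.

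Genes were tested with edgeR 4.0.16 (R 4.3.3, limma 3.58.1) with TMM scaling, a robust quasi-likelihood F test and filterByExpr (9 genes removed), with 1 mean per group over all libraries, two-sided and adjusted over 8981 genes. Log2 CPM used a prior count of 2. Standard errors came from the log2 fold change and F. DESeq2 1.42.0 was an alternative, as were other scalings, filters, a replicate block, fewer groups, left-out libraries and an ecdysone covariate. Scripts were tested on simulated data. Replicates differed by 56.6 to 196 times the sampling variance per gene, so none was a repeat. The p-values reflect how far pools of brains from separate days differed.

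The members and lists were chosen with earlier results of these data known. Named genes were all members, PEK and PPP1R15, up to 4 called genes per list and main comparison in order of adjusted p, and the 5 most like each member. Other list genes, and CG33947 and PNPase as overlapping genes, were named after their values were seen. Per the series design, replicates come from different days, which the batch labels mark. The deviations of same-day libraries from their groups correlated with a median r of 0.129 (30 pairs, 16 of them above 0.1). Libraries of other days had -0.066 (60 pairs, 17 above). Deviations cancel out within a group, so a positive value for the same day brings a negative one for other days. The second value is therefore no separate comparison. Symbols came from the reference annotation for 8939 genes, with none for 51. A planned promoter motif search was not run.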

Additional observations from a re-analysis of the deposited data

Results flagged for a closer look

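For 39 named results the difference between CDXX against CDXY and T2L against C2L was tested with the interaction term of edgeR. With p adjusted over all genes 18 were called, where 10.5% of all genes were called higher and 11.8% lower. Apart from the members, PEK and PPP1R15, the list genes among the 39 were named because they were called in 1 or both contrasts. That choice favours such calls, so the count of 18 is not a result about them. Both regulators with such a difference have been described, Xrp1 at 1.25 and Irbp18 at 0.72 on the log2 scale. PEK, the kinase of endoplasmic reticulum stress, differed by 0.32 (adjusted p = 0.0452, 0.20 in CDXX and -0.12 in T2L), a call that ended in 9 of 12 fits without 1 library and held without CDXY replicate 4, T2L replicate 4 or C2L replicate 5. Among X genes, DNAlig4 differed by 1.15, CrebB by 0.82, eIF2Bbeta by 0.80, eIF2alpha by 0.76, eIF2Bepsilon by 0.59 and Atf3 by 1.66, where the median X gene differed by 0.53. The 2L gene ref(2)P differed by -0.87 and the 2L gene Hr39, a nuclear receptor of the ecdysone cascade, by -0.99, where the median 2L gene differed by -0.56.

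On arms of unchanged copy number, rad50 differed by 1.04, GstE6 by 1.97, GstE1 by 1.63 and the nuclear receptor gene ftz-f1 by 1.34, all with the higher value in CDXX. CG33947, which overlaps Irbp18, differed by -0.80 (adjusted p = 0.00624), and the chaperones Calr and Gp93 by -0.67 and -0.52. Fits without 1 library ended the call of Atf3 and Hr39 in 7 of 12 cases (values from 1.34 to 1.67 and from -0.99 to -0.74) and that of ftz-f1 in 8 (values from 1.03 to 1.43); those of GstE1, GstE6 and Irbp18 are given above. For rad50, Calr, CG33947 and Xrp1 no such fit did.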

How the results depend on the processing

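Xrp1 kept its call in CDXX against CDXY under every alternative run (1.31 to 1.57 without 1 library), and crc kept its call in T2L against C2L (0.53 to 0.76). Where a call ended, the cause was not tested. With the ecdysone mean as a covariate, Irbp18 had 0.85 in CDXX against CDXY and 0.81 in the difference, crc 0.43 in CDXX against CDXY and 0.49 in CDXX against Oregon (adjusted p = 0.0915), and the genes called numbered 227 in CDXX against CDXY and 1188 in the difference instead of 2004. In a fit of only the groups compared, crc had 0.44 in CDXX against CDXY and Gcn2 -0.37 in T2L against Oregon (adjusted p = 0.106). With scaling on the other arms alone, Gcn2 had -0.29 there.

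Signs turned for values near 0. Irbp18 in T2L against C2L was 0.06 with that scaling, 0.00 with the replicate block and 0.03 with the covariate, and PNPase in CDXX against CDXY was -0.21 with the covariate instead of 0.02.

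Leaving out 1 library each, genes called in T2L against C2L ran from 755 (without C2L replicate 6) to 1151, with 927 without T2L replicate 4 and 938 without T2L replicate 5, instead of 1408. In CDXX against CDXY crc ran from 0.31 to 0.54 and PNPase from -0.08 to 0.09. For T2L against C2L, Irbp18 ran from -0.09 to 0.08 and CG33947 from -0.06 to 0.14. In the difference Irbp18 ran from 0.59 to 0.81 and Gcn2 from -0.13 to 0.07. In CDXY against Oregon crc ran from -0.05 to 0.20 and Gcn2 from -0.00 to 0.07. In C2L against Oregon Xrp1 ran from -0.31 to 0.02, Irbp18 from -0.04 to 0.16 and crc from -0.04 to 0.21. In T2L against Oregon Xrp1 ran from -0.02 to 0.17, Irbp18 from -0.06 to 0.16 and Gcn2 from -0.45 to -0.27. In T2L against CDXX Gcn2 ran from -0.33 to -0.13, and it was called without T2L replicate 4 or CDXX replicate 5. In C2L against CDXY Xrp1 ran from -0.05 to 0.28, Irbp18 from -0.19 to 0.04 and crc from -0.11 to 0.16.

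With the batch as a replicate block no call of a regulator changed: in CDXX against CDXY Xrp1 had 1.45 (adjusted p = 0.000174), Irbp18 0.72 (adjusted p = 0.00602) and crc 0.48 (adjusted p = 0.0075), and in the difference Xrp1 had 1.24 and Irbp18 0.71 (adjusted p = 0.0481). With 3 libraries a group, the intervals of Gcn2 in both main comparisons hold both signs.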
